A study of Mus musculus with 27 samples.

Results

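The 8 genes described here are the 3 genes of the IRF2BP corepressor family (*Irf2bp1*, *Irf2bp2* and *Irf2bpl*) and 5 genes of the interferon regulatory factors (*Irf1*, *Irf2*, *Irf3*, *Irf5* and *Irf8*). They were picked by symbol, with earlier results of these data known, out of 20602 gene symbols listed in any of 5 RNA-Seq tables of mouse erythroleukaemia (MEL) cells. All 8 have a row in the *Irf2bp2* and *Gfi1b* tables, and 7 have a row in the other 3 tables, where *Irf8* has none. MEL cells are an established line of transformed mouse erythroid progenitors. The tables compare 9 control or non-induced libraries with 12 knockdown (KD) or induced libraries, and the series holds 27 samples in all. The question that the tables allow for these genes is how deep the KD of *Irf2bp2* was at the RNA level, whether its relatives changed with it, and how the set changed when partner proteins were depleted or the cells were induced to differentiate.

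The *Eto2* table holds 2 control libraries, 2 libraries with the short hairpin RNA (shRNA) sh2 and 2 with sh3, both against *Cbfa2t3*, the gene that encodes ETO2. The *Irf2bp2* table holds 2 control libraries and 2 with the shRNA sh1, and the *Lsd1* table holds 1 control library and 2 with an shRNA against *Kdm1a*, the gene that encodes LSD1. In these 3 tables the study delivered the hairpins by lentivirus, with a non-targeting shRNA as control. The *Gfi1b* table holds 2 control libraries and 2 labelled KD. The study transfected them with non-targeting or *Gfi1b* short interfering RNA (siRNA), and the labels do not say which siRNA a library received. The last table holds 2 libraries labelled MEL non-induced and 2 labelled MEL induced, with neither agent nor time in the labels. All libraries come from this single cell line, so that the replicates measure the spread between cultures of 1 line and not between animals.

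The IRF2BP proteins carry an N-terminal zinc finger and a C-terminal RING finger. IRF2BP1 and IRF2BP2 were found through their binding to IRF2, for which they act as corepressors. Interferon regulatory factors share a DNA-binding domain that reads repeated GAAA blocks. IRF3 and IRF5 are held in the cytoplasm until pattern-recognition receptors activate them, IRF1 is an activator induced by interferon, IRF2 competes with IRF1 for the same sites and mostly represses, and IRF8 directs myeloid and lymphoid cells. The study set IRF2BP2 beside ETO2, a corepressor of the erythroid LDB1 complex that reaches DNA through GATA1 and TAL1.

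The combined list of 13229 sites of ETO2 and IRF2BP2 gave a readout of these genes that does not rest on their RNA. The list sorts sites into those of ETO2 alone, those of IRF2BP2 alone and those shared by both, and rests for IRF2BP2 on 1 ChIP and 1 IgG library, so that its sites have no replicate. The ETO2 ChIP came from an earlier published data set, whose libraries are not among the samples used here. Of the 8 genes, 5 had an IRF2BP2-occupied site centred within 20 kb of the transcription start site (TSS), namely *Irf2bp2*, *Irf2bpl*, *Irf2*, *Irf3* and *Irf5*. Of 22380 protein-coding genes of the annotation, 29.3% had such a site. An ETO2-occupied site lay within 20 kb of 2 of the 8, *Irf2bp2* and *Irf2bpl*, against 11.9% of all protein-coding genes, and these were the only members with a shared site within that distance (7.81% of all genes). *Irf1*, *Irf2bp1* and *Irf8* had no listed site within 20 kb.

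**Figure D1:**
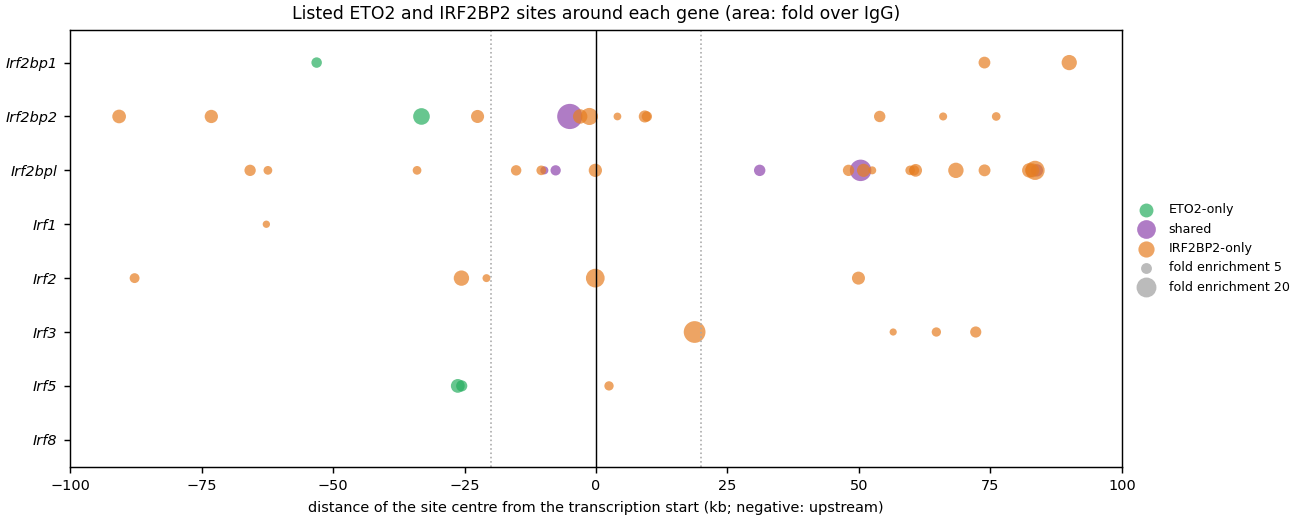
Listed binding sites within 100 kb of the TSS of each gene, by distance of the site centre in kb along the direction of transcription (horizontal axis) and by gene (vertical axis). Colour gives the class of the site, area its fold enrichment over IgG, and the dotted lines mark 20 kb; sites crowd around *Irf2bp2* and downstream of *Irf2bpl*, whereas *Irf8* has none.

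*Irf2bp2* lies on mm9 at chr8:129112196-129117336 on the minus strand and had 6 listed sites within 20 kb. Of these, 5 were IRF2BP2-only, centred 3015 and 1268 bp upstream of the TSS, at 4070 bp within an exon, and at 9276 and 9670 bp, past the 3′ end of the gene. The shared site, centred 4989 bp upstream, had the highest fold enrichment of the 6, at 39.0-fold over IgG, against 3.7-fold to 18.0-fold for the others. The list gives a single fold for a shared site and does not name the antibody behind it. Its central 201 bases, at chr8:129122225-129122425, are printed 5′ to 3′ on the strand of the gene because this is the strongest site that both corepressors occupy at any of the 8 genes. Capitals mark AGATAA or its reverse complement. AGATAA is a form of WGATAR (W is A or T, R is A or G), the GATA part of the motif that the study gives for the LDB1 complex. Other forms of WGATAR were neither marked nor counted.

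Irf2bp2 shared site: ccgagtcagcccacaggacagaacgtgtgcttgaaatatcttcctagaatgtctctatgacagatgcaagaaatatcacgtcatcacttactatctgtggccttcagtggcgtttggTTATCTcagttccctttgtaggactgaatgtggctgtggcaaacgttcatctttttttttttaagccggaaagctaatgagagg

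*Irf2bpl*, which the annotation carries under the name 6430527G18Rik, is a gene with 1 exon at chr12:88221653-88225764 on the minus strand. It had 5 sites within 20 kb, with an IRF2BP2-only site at the promoter, centred 129 bp upstream of the TSS (10.8-fold), and shared sites 7681 bp (6.5-fold) and 9829 bp (4.0-fold) upstream. The site at 9829 bp overlaps an IRF2BP2-only site centred 10421 bp upstream, so that the entries are not separate regions in every case. Its strongest site that ETO2 shares lay 50311 bp from the TSS, past the 3′ end of the gene, at 28.3-fold, and *Irf2bpl* was the nearest protein-coding gene to it. The windows of the promoter site, chr12:88225793-88225993, and of the distal site, chr12:88175353-88175553, are set side by side because they differ in class, and the distal window holds 1 AGATAA match whereas the promoter window holds none.

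Irf2bpl promoter site, IRF2BP2-only: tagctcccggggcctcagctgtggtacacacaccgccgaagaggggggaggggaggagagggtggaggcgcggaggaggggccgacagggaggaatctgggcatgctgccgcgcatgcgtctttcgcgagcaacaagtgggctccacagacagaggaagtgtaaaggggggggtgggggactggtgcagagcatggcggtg
Irf2bpl distal site, shared: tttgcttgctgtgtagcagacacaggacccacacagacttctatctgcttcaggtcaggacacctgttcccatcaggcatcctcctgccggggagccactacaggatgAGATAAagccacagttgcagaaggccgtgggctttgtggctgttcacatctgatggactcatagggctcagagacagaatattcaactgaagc

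*Irf2*, at chr8:47825099-47932812 on the plus strand, had an IRF2BP2-only site centred 142 bp upstream of its TSS, with a fold enrichment of 21.5, and 1 more in an intron at 49904 bp (10.4-fold). Sites of the same class lay 20836 bp (3.88-fold) and 25598 bp (14.5-fold) upstream. The window of the promoter site, chr8:47824857-47825057, is shown because it holds a match, in capitals near its 5′ edge, to the IRF pattern, which is GAAA, then 2 bases of any kind, then GAAA. That edge is also an exon of a non-coding gene on the opposite strand, *Gm16675*. This was the only match to these letters in the promoters (250 bases before to 50 after the TSS) of the 8 genes.

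Irf2 promoter site, IRF2BP2-only: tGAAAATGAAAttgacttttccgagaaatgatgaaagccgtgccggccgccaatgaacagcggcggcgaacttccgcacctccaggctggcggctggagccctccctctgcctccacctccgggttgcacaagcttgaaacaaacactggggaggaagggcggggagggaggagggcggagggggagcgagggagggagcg

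Searched on both strands, AGATAA was present in 58.4% of the 2730 shared windows of 201 bases, in 56.1% of the 1760 ETO2-only windows and in 22.6% of the 8739 IRF2BP2-only windows. The IRF pattern was present in 1.25%, 1.65% and 3.14% of them. Among the promoters of all 22380 protein-coding genes, 3.78% held the IRF pattern and 10.4% held AGATAA. A match describes the letters of a window and is not a measured site of a factor.

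*Irf5*, at chr6:29476625-29491869 on the plus strand, had an IRF2BP2-only site in an intron, centred 2467 bp past the TSS, with a low fold enrichment of 5.33. Both ETO2-only sites near it lay 25544 and 26291 bp upstream, closer to the TSS of *Kcp*. The site counted for *Irf3* (chr7:52253018-52258218, plus strand), 18748 bp from its TSS with a fold of 29.0, was 33 bp from the TSS of *Scaf1*, so that the distance rule and not the nearest gene put it with *Irf3*. The site nearest to *Irf1* (chr11:53583516-53591876, plus strand) was 62696 bp upstream at the TSS of *Rad50*, and that nearest to *Irf2bp1* (chr7:19589414-19592110, plus strand) was an ETO2-only site 53131 bp upstream. *Irf8* (chr8:123260258-123280594, plus strand) had none within 100 kb.

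Between 44519414 and 57684583 reads were counted in the shRNA libraries and between 9929311 and 19623105 in the *Gfi1b* and MEL libraries. The erythroid identity of the cells was visible in all libraries, in which 10 erythroid markers summed to between 1487 and 5507 CPM (counts scaled to library size by the TMM method). Marker sums of macrophages and monocytes stayed at or below 6.87 CPM, those of dendritic cells at or below 2.55 CPM, those of B cells at or below 2.44 CPM and those of fibroblasts at or below 1.26 CPM. Up to 8 of 10 macrophage and monocyte markers, 5 of 7 dendritic cell, 6 of 7 B cell and 6 of 6 fibroblast markers were at 0 or without a row in a library. Replicates of the shRNA groups differed by a median absolute log2 of 0.0837 to 0.116 per gene. The 2 non-induced libraries differed by 0.322, the 2 induced ones by 0.293 and the 2 libraries labelled *Gfi1b* KD by 0.416.

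Levels of different genes were compared per length, by the RPKM values of the authors. *Irf2bp2* was the highest of the set in the controls of each of the 5 tables, with a median of 25.9 RPKM and a range of 22.5 to 34.3 RPKM over 9 control libraries. *Irf3* followed at a median of 20.5 RPKM (7.52 to 24.0) and *Irf2bp1* at 20.3 RPKM (6.48 to 23.3). *Irf2* had a median of 12.6 RPKM (10.9 to 17.9), *Irf5* 11.9 RPKM (6.92 to 15.0) and *Irf2bpl* 8.56 RPKM (7.22 to 16.6). *Irf1* was the lowest of the 7 genes that could be tested, at a median of 2.43 RPKM (2.06 to 4.68).

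The order was not the same in each table. In the *Irf2bp2* controls the ranges of *Irf3* and *Irf2bp1* overlapped, and in the *Gfi1b* controls those of *Irf2bp1* and *Irf2* did. In the non-induced libraries *Irf2*, *Irf2bpl*, *Irf3*, *Irf2bp1* and *Irf5* each overlapped its neighbour in the order of means, although *Irf2* (11.89 to 12.56 RPKM) lay above *Irf5* (6.92 to 8.73 RPKM) and just above *Irf2bp1* (6.48 to 11.87 RPKM). *Irf2bp2* lay above and *Irf1* below all of them. *Irf2bpl* was higher in the *Gfi1b* controls (16.6 and 14.3 RPKM) than in the controls of the 3 shRNA tables (7.22 to 9.04 RPKM), and *Irf3* and *Irf5* were lower. The tables were normalized separately and differ in the kind of control and in depth, which cannot be told apart here.

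**Figure D2:**
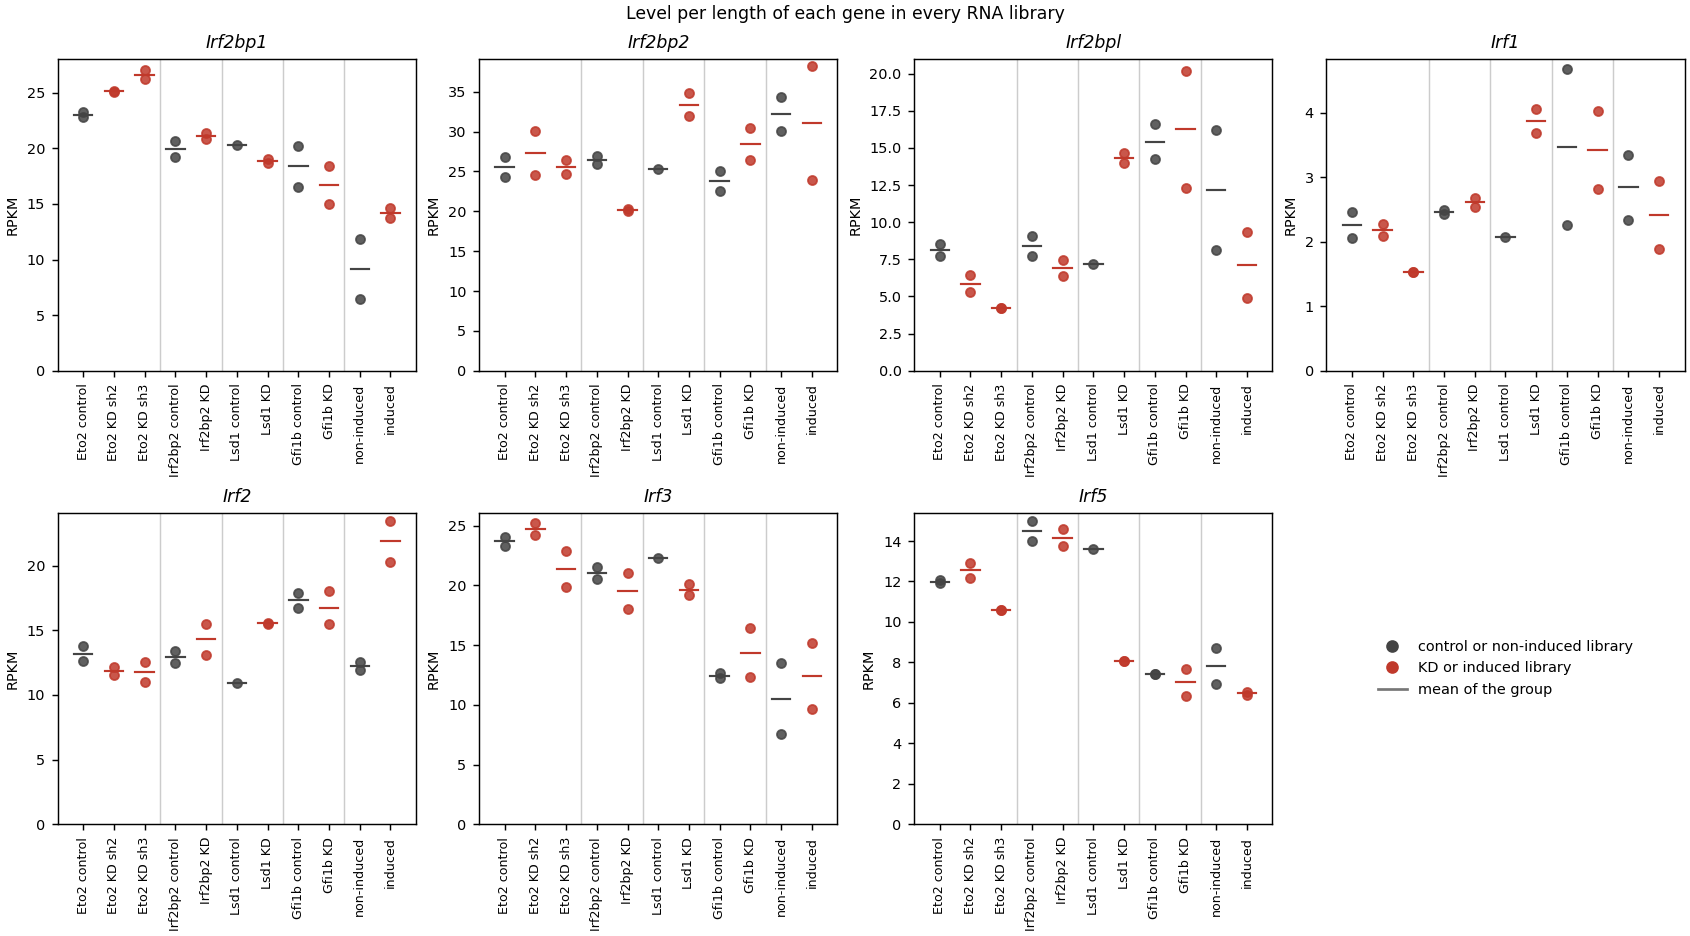
RPKM (vertical axis, from 0) of 7 genes in all 21 RNA libraries, by group (horizontal axis). Each point is 1 library, short lines are group means and vertical lines separate the tables; *Irf2bp2* falls in its own KD, and *Irf2bpl* is lowest with *Eto2* hairpin sh3 and is higher in *Lsd1* KD than in its control.

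*Irf8* was at or under the floor of 3 counts wherever it was listed. Its counts were 3 and 0 in the *Irf2bp2* controls, 1 and 0 in *Irf2bp2* KD, 3 and 0 in the *Gfi1b* controls and 0 in both libraries labelled *Gfi1b* KD. At these depths 3 counts correspond to between 0.0580 and 0.302 CPM, and the gene was not tested.

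RNA of *Irf2bp2* itself was lowered only modestly by the hairpin against it. The KD libraries held 92.2 and 94.9 CPM against 116.0 and 119.7 CPM in the controls. Both KD libraries lay below both controls, by a log2 FC of -0.33 (SE 0.08, 95% interval -0.50 to -0.16, adjusted p = 0.00266 by the edgeR quasi-likelihood test, Benjamini-Hochberg adjusted). The RNA fell by 20.6% to 0.794 of the control level. For comparison, *Kdm1a* fell from 151.6 to 16.9 and 16.3 CPM in *Lsd1* KD, and *Cbfa2t3* from 400.3 and 427.2 CPM to between 123.1 and 243.5 CPM in *Eto2* KD. In bulk RNA, fewer cells with a KD and less RNA lost per cell cannot be told apart. The reads of *Irf2bp2* may also include those of *Gm16983*, a non-coding gene on the opposite strand whose exons overlap it, since the counting is not stated to use strand.

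No relative of *Irf2bp2* was raised past the threshold when it was depleted. Of the 7 genes tested, *Irf2bp2* was the only member that passed the test (adjusted p at or below 0.05), in a comparison in which 47.1% of all tested genes were called (22.5% with a further log2 FC limit of 0.5, which *Irf2bp2* did not reach). *Irf2bp1* stood at 51.2 and 54.6 CPM in the controls and 57.1 and 59.9 CPM in KD (log2 FC 0.14, 95% interval -0.03 to 0.32, edgeR adjusted p = 0.165). *Irf2bpl* stood at 31.5 and 36.5 CPM in the controls and 31.2 and 27.2 CPM in KD (log2 FC -0.22, interval -0.43 to -0.01, edgeR adjusted p = 0.0856). The KD libraries lay above the controls for the first and below them for the second, and in each case the gap between the nearest KD and control library was smaller than the difference between the controls. *Irf2bpl* passed the test with the replicate number as a block (edgeR adjusted p = 0.0461) and without control replicate 1 (0.0222).

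Summed over the family, *Irf2bp1*, *Irf2bp2* and *Irf2bpl* reached 52.8 and 56.6 RPKM in the controls and 48.4 and 48.1 RPKM in *Irf2bp2* KD. *Irf2bp2* made up 49.0 and 47.6% of this sum in the controls and 41.5 and 42.1% in KD, and *Irf2bp1* went from 36.3 and 36.5% to 43.1 and 44.6%. The sum and the share of *Irf2bp2* were therefore both lower in each KD library than in each control, with 2 libraries a group and no test.

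**Figure D3:**
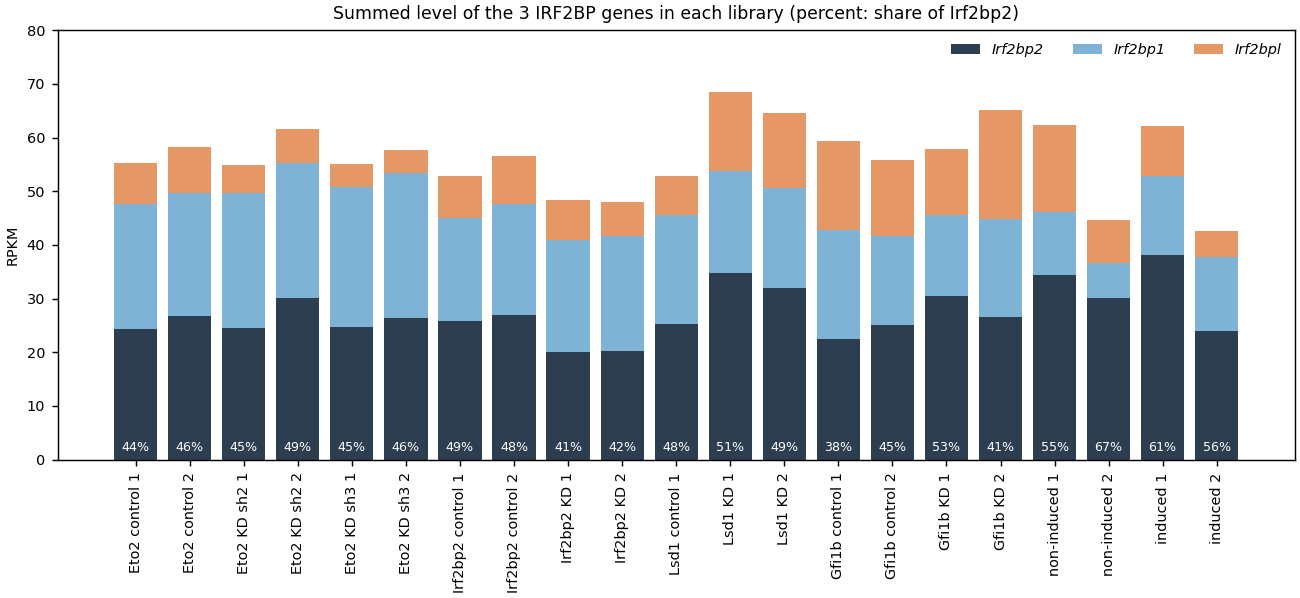
Stacked RPKM of *Irf2bp2*, *Irf2bp1* and *Irf2bpl* (vertical axis, from 0) in each of the 21 RNA libraries (horizontal axis), with the percentage held by *Irf2bp2* printed in its bar. The sum is lowest in the second induced library (42.6 RPKM) and highest in the first *Lsd1* KD library (68.5 RPKM).

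None of the interferon regulatory factors in the set passed the test in *Irf2bp2* KD. *Irf2*, whose protein gave the family its name, stood at 30.6 and 32.6 CPM in the controls and 33.0 and 39.9 CPM in KD (log2 FC 0.21, interval -0.00489 to 0.42, edgeR adjusted p = 0.101), and passed the test only when KD replicate 1 was left out (0.0387). *Irf1* had a log2 FC of 0.18 (edgeR adjusted p = 0.337), *Irf3* of -0.04 (0.717) and *Irf5* of 0.04 (0.767). For *Irf3* and *Irf5* the groups overlapped, and the 95% interval of both changes lay between -0.24 and 0.24.

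Other genes of the interferon pathway did change in *Irf2bp2* KD. *Irf7*, the factor that amplifies type I interferon, fell from 8.44 and 14.3 CPM to 2.57 and 2.07 CPM (log2 FC -2.30, SE 0.21, adjusted p = 2.25e-07 by the edgeR quasi-likelihood test, Benjamini-Hochberg adjusted), and *Irf9*, the DNA-binding subunit of the interferon-activated ISGF3 complex, fell from 32.2 and 37.6 to 28.5 and 24.6 CPM (log2 FC -0.40). Of 12 tested genes that sense nucleic acid or signal to IRF3, IRF5 and IRF7, 6 fell and 1 rose, with the largest falls in the RNA sensors *Ddx58* (RIG-I; log2 FC -2.32), *Dhx58* (-1.94) and *Ifih1* (MDA5; -1.35). Of 17 tested genes with IRF-dependent promoters, 8 fell and 1 rose, with *Oas1a* at -1.57, *Ciita* at -1.48 and *Oasl2* at -1.48, of which *Ciita* was at a mean of 0.383 CPM in the controls. Of 12 interferon receptor and JAK-STAT genes, 5 fell and 2 rose, among them both chains of the interferon gamma receptor, *Ifngr1* (-1.20) and *Ifngr2* (-1.04), and the feedback inhibitor *Socs3* (1.46). Among all tested genes 23.6% fell and 23.6% rose, with a median log2 FC of -0.01, against list medians of -0.24, -0.40 and -0.13. Of the genes reported as partners or targets of IRF2BP2, *Trp53*, which encodes p53, rose (0.29). The erythroid marker sum went from 1628 and 1710 CPM to between 4041 and 4333 CPM in the same libraries. The macrophage and monocyte sum went from 3.33 and 3.47 CPM to 2.52 and 1.99 CPM, with most of its markers at or under the floor. The part of either in these changes was not tested.

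With both hairpins as 1 group, *Irf2bpl* was the only member that passed the test in *Eto2* KD, a share close to that of all genes. It stood at 31.5 and 34.9 CPM in the controls, 21.7 and 26.4 CPM with sh2 and 17.4 CPM in both sh3 libraries. All 4 KD libraries lay below both controls, and the sh3 libraries below the sh2 libraries. The log2 FC was -0.68 (SE 0.16, 95% interval -1.04 to -0.32, adjusted p = 0.0276 by the edgeR quasi-likelihood test, Benjamini-Hochberg adjusted), which is a fall by 37.6%, and *Irf2bpl* was 1 of 7 members to pass where 11.4% of all tested genes did (5.74% with the log2 FC limit of 0.5). Without control replicate 1 the edgeR adjusted p was 0.139 (log2 FC -0.76) and without control replicate 2 it was 0.223 (-0.60), so that the call needs both controls. The number of called genes fell from 1423 to 298 and 404 in these fits.

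The hairpins differed in their depth, with *Cbfa2t3* at 202.1 and 243.5 CPM with sh2 and 123.1 and 145.3 CPM with sh3. In a fit of the 3 groups, *Irf2bpl* fell with sh2 (log2 FC -0.47, edgeR adjusted p = 0.00619) and with sh3 (-0.93, 4.97e-05), where 20.1% and 25.3% of genes were called. The hairpin contrasts share their control libraries. Set directly against sh2, sh3 was lower for *Irf2bpl* by a log2 FC of -0.47 (95% interval -0.69 to -0.25, edgeR adjusted p = 0.0113), and for *Irf5* by -0.24 (interval -0.39 to -0.08, edgeR adjusted p = 0.0497). The call of *Irf2bpl* was lost without sh2 replicate 2 (0.0598) or sh3 replicate 2 (0.059), and that of *Irf5* when any 1 of the 6 libraries was left out. In this contrast 13.7% of genes were called, a count that went from 1720 to 3121 genes with the replicate number as a block and dropped to 988 and 711 without sh3 replicate 1 and 2.

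Neither of the other family members passed the test with both hairpins as 1 group. *Irf2bp2* itself stood at 109.5 and 120.8 CPM in the controls and between 111.4 and 136.3 CPM in KD, with overlapping groups (log2 FC 0.06, interval -0.15 to 0.26, edgeR adjusted p = 0.74). *Irf2bp1* stood at 62.4 and 61.1 CPM in the controls and between 67.8 and 73.0 CPM in KD, above both controls in each of 4 libraries, and did not pass (log2 FC 0.18, edgeR adjusted p = 0.0987), although in the fit of 3 groups it did for the mean of both hairpins (0.18, 0.0203) and for sh3 (0.22, 0.0137). Of the interferon regulatory factors, *Irf1* had a log2 FC of -0.30 (edgeR adjusted p = 0.315) over both hairpins and fell with sh3 in the fit of 3 groups (-0.53, 0.0129), where both libraries held 3.28 and 3.29 CPM against 4.34 and 5.13 CPM in the controls. *Irf2* (-0.15), *Irf3* (-0.03) and *Irf5* (-0.05) overlapped between groups.

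In the wider lists, *Eto2* KD lowered 5 and raised none of 18 tested genes with IRF-dependent promoters, against 5.88% lowered and 5.47% raised among all genes. They were the immunoproteasome subunits *Psmb9* (log2 FC -0.69) and *Psmb8* (-0.58), the MHC class I light chain *B2m* (-0.60), and *Tap1* and *Tapbp* of peptide loading. Of the receptor and JAK-STAT genes, 4 of 12 fell, with *Ifngr2* at -0.46, and *Socs3* rose (0.56). Of the sensors and kinases, *Ddx58* (-0.75) and *Tbk1* (-0.34) fell and the adaptor *Mavs* rose (0.30). None of the 3 tested other IRF genes passed, with a list median of -0.09, and of the reported IRF2BP2 partners and targets only *Cbfa2t3*, the gene depleted, did. The erythroid marker sum was 1925 and 1946 CPM in the controls and between 2556 and 3076 CPM in KD. The macrophage and monocyte sum was 4.475 and 4.549 CPM in the controls and between 3.135 and 3.931 CPM in KD. The part of either in these values was not tested.

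**Figure D4:**
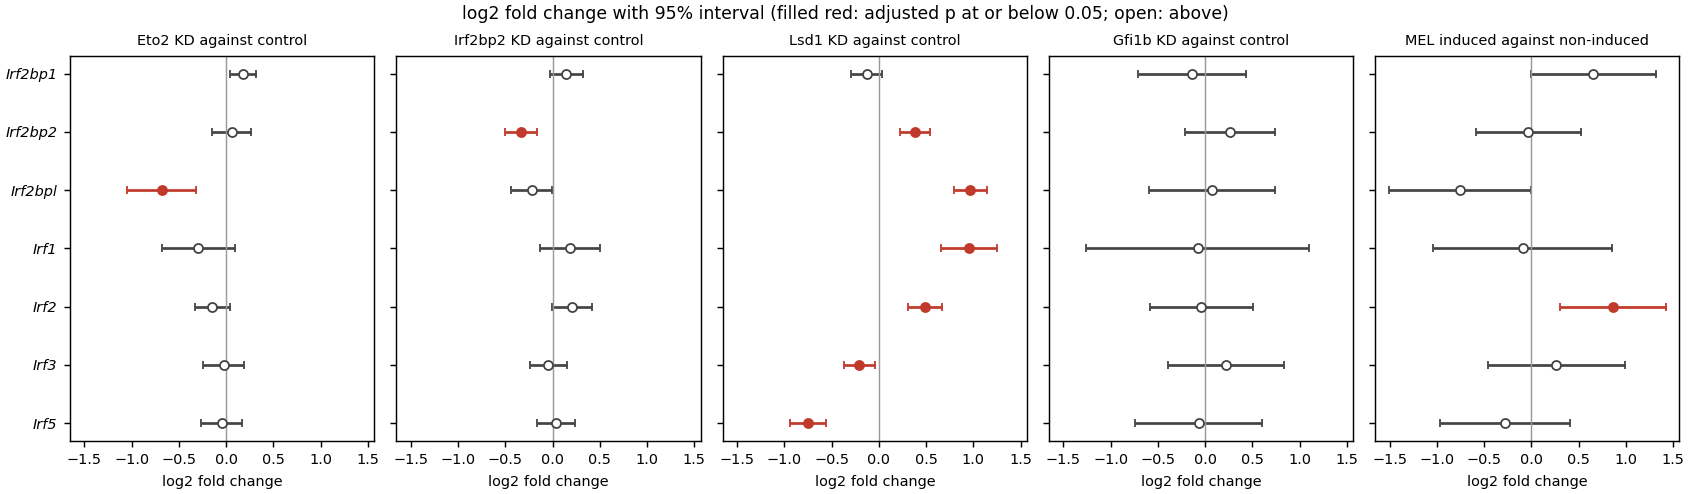
log2 fold change of 7 genes in 5 comparisons (horizontal axis, with 95% intervals; vertical axis, gene), treated against control. Filled red points have an edgeR adjusted p at or below 0.05; they number 1, 1, 6, 0 and 1 from left to right, and the intervals are widest in the *Gfi1b* and MEL comparisons.

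*Lsd1* KD moved the set most widely. Of 7 tested members, 4 rose and 2 fell, in a comparison in which 48.5% of all genes were called (22.5% with the log2 FC limit of 0.5, which 3 of the 6, *Irf2bpl*, *Irf1* and *Irf5*, passed). This table has 1 control library, so that the spread in the edgeR test comes from the 2 KD libraries and the control is assumed to vary like them. *Irf2bpl* rose from 29.9 CPM to 59.4 and 57.3 CPM (log2 FC 0.97, SE 0.09, adjusted p = 3.57e-09 by the edgeR quasi-likelihood test, Benjamini-Hochberg adjusted), and *Irf2bp2* from 115.2 to 155.2 and 144.7 CPM (0.38, SE 0.08, 0.000332). *Irf2bp1* stood at 55.2 CPM in the control and 50.7 and 50.4 CPM in KD and did not pass (-0.13, edgeR adjusted p = 0.191). The family sum was 52.8 RPKM in the control and 68.5 and 64.6 RPKM in KD. *Irf2bpl* went from 13.7% to 21.4 and 21.6% of it and *Irf2bp1* from 38.5% to 27.8 and 28.9%.

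Among the interferon regulatory factors in *Lsd1* KD, *Irf1* rose from 4.31 CPM to 8.70 and 7.99 CPM (log2 FC 0.95, SE 0.14, edgeR adjusted p = 9.65e-06) and *Irf2* from 27.3 to 38.0 and 38.4 CPM (0.49, SE 0.09, 6.5e-05). *Irf5* fell from 28.9 to 16.9 and 17.4 CPM (-0.75, SE 0.09, 4.86e-07). *Irf3* fell slightly from 45.9 to 40.5 and 39.1 CPM (-0.21, edgeR adjusted p = 0.0402), a call that DESeq2 did not make (adjusted p = 0.172). The activator *Irf1* and its antagonist *Irf2* thus lay above the control in both KD libraries, and *Irf3* and *Irf5* below it. Both KD libraries were set against the same single control, whose spread was not measured, so leaving out either of them could not change these signs. *Irf5* shares exon sequence with *Tnpo3* on the opposite strand, *Irf3* with *Bcl2l12* and *Irf1* with *Gm17334*, and reads of the overlaps cannot be told apart without strand.

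The wider lists had medians above 0 in *Lsd1* KD. *Irf7* rose from 2.05 CPM to 5.04 and 5.08 CPM (log2 FC 1.30, SE 0.19, edgeR adjusted p = 5.08e-06) and *Irf9* from 23.1 to 41.7 and 37.5 CPM (0.78). Of 19 tested genes with IRF-dependent promoters, 10 rose and 1 fell, with a median log2 FC of 0.96 against 0.00 over all genes, of which 24% rose. *Isg15*, a ubiquitin-like protein induced by interferon, rose from 1.31 to a mean of 10.8 CPM (log2 FC 3.04) and *Oasl2* from 0.143 to 2.68 CPM (4.21). *Ifit1* was at 0.0409 CPM in the control, under the floor, and at a mean of 1.52 CPM in KD. Of 12 receptor and JAK-STAT genes, 8 rose and 2 fell, with *Ifngr2* going from 14.1 to a mean of 56.6 CPM, *Stat2* at 1.03 and *Socs3* at -1.01. Of 13 sensors and kinases, 5 rose and 2 fell, with *Dhx58* at 2.01, *Ddx58* at 1.54, and *Tmem173*, which encodes STING, at 0.0409 CPM in the control and a mean of 7.79 CPM in KD. Of the reported IRF2BP2 partners and targets, *Vegfa* (-0.77) and *Ncor1* (-0.65) fell and *Cbfa2t3* and *Trp53* (0.38) rose. The macrophage and monocyte marker sum was 4.40 CPM in the control and 4.33 and 4.88 CPM in KD, and the erythroid sum was 2039 CPM against 1500 and 1506 CPM. The part of the erythroid shift was not tested.

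Each table has its own controls, and the differences between tables were not tested. The level of *Irf7*, with each table scaled on its own, varied between controls, from 1.31 CPM in a *Gfi1b* control to 14.5 CPM in an *Eto2* control, and the *Lsd1* control, at 2.05 CPM, lay near the *Irf2bp2* KD libraries at 2.57 and 2.07 CPM.

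In the *Gfi1b* table, the library labelled *Gfi1b* KD replicate 1 goes against its label. *Gfi1b* RNA was at 122.3 and 145.0 CPM in the controls, 215.8 CPM in that library and 76.5 CPM in *Gfi1b* KD replicate 2. No member passed the test, and neither did any other gene (0% of 11190 genes by edgeR), whereas 784 genes had an unadjusted p under 0.05 and DESeq2 called 59. Without the library labelled *Gfi1b* KD replicate 1 edgeR called 403 genes and without replicate 2 it called 3530, and no member passed in either fit. *Irf2bp2* stood at 102.1 and 112.7 CPM in the controls, 139.1 CPM in the library labelled *Gfi1b* KD replicate 1 and 118.9 CPM in replicate 2 (log2 FC 0.26, interval -0.21 to 0.74, edgeR adjusted p = 0.763). *Irf2bpl* stood at 68.2 and 58.2 CPM in the controls, and at 51.0 CPM in the library labelled *Gfi1b* KD replicate 1 and 82.2 CPM in replicate 2, on opposite sides of the controls. With replicate 2 alone the log2 FC of *Irf2bpl* was 0.37 (edgeR adjusted p = 0.309) and with the library labelled replicate 1 alone it was -0.33 (0.223). The other members had log2 FC between -0.14 and 0.22 with both libraries. The lists for this pathway had no called gene.

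In the induced cells, *Irf2* was the only one of the 7 tested members that passed the test. It rose from 28.7 and 31.8 CPM in the non-induced libraries to 49.9 and 60.1 CPM in the induced ones (log2 FC 0.86, SE 0.26, 95% interval 0.31 to 1.42, adjusted p = 0.0248 by the edgeR quasi-likelihood test, Benjamini-Hochberg adjusted). Both induced libraries lay above both non-induced ones, a rise by 81.9%, in a comparison in which 27.2% of genes were called. The call was lost without non-induced replicate 1 (log2 FC 0.78, edgeR adjusted p = 0.122), without non-induced replicate 2 (0.94, 0.0717) and without induced replicate 2 (0.73, 0.175). The count of called genes, 3187, dropped to 1626, 1522 and 1772 in these same fits.

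*Irf2bp2* RNA did not pass the test with induction, at 151.1 and 138.9 CPM before and 171.4 and 112.0 CPM after (log2 FC -0.03, interval -0.59 to 0.52, edgeR adjusted p = 0.94). The induced libraries lay on either side of the non-induced ones. *Irf2bp1* stood at 31.1 and 17.8 CPM before and 39.1 and 38.3 CPM after, without overlap (0.66, edgeR adjusted p = 0.13), and *Irf2bpl* at 64.8 and 34.2 CPM before and 38.2 and 20.6 CPM after, with overlap (-0.75, 0.127). Each replicate 1 library held more *Irf2bpl* than the replicate 2 library of its group, and with the replicate number as a block *Irf2bpl* passed (edgeR adjusted p = 0.0267), as it did without a filter on low counts (0.0478) and without induced replicate 1 (log2 FC -1.27, 0.0092). *Irf2bp1* passed without non-induced replicate 1 (log2 FC 1.10, edgeR adjusted p = 0.0479). *Irf2bp2* held 55.0 and 67.3% of the family RPKM before and 61.4 and 56.3% after, while *Irf2bpl* went from 26.0 and 18.2% to 15.1 and 11.4%. *Irf3* (0.26), *Irf1* (-0.09) and *Irf5* (-0.27) did not pass.

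Of the wider lists, *Irf7* rose with induction from 2.49 and 2.86 CPM to 20.1 and 6.52 CPM (log2 FC 2.32, SE 0.52, edgeR adjusted p = 0.00565), and the first induced library held most of the rise. Genes with IRF-dependent promoters went both ways, with 2 of 15 higher, *Tapbp* (1.56) and *Xaf1*, and 2 lower, the immunoproteasome subunits *Psmb10* (-1.66) and *Psmb8* (-1.29), against 12.4% higher and 14.8% lower among all genes. Of 12 receptor and JAK-STAT genes, 3 rose, with *Socs3* at 1.68, and *Ifngr1* fell (-1.02). Of 12 sensors and kinases, *Mavs* rose (0.96), and *Ifih1* (-1.92) and *Ikbke* (-1.51) fell. *Ncor1* (0.76) was the reported partner that passed. The erythroid marker sum went from 2214 and 2240 CPM to 5060 and 5507 CPM.

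Across the 21 libraries, with each table centred on its own mean, the genes whose log2 CPM was most like that of *Irf2bp2* were *Pde4a* (Pearson's r = 0.832), *Scrn2* (0.801) and *Osbpl5* (0.798), of 11053 genes. For *Irf1* they were *Rhof* (0.857), *H2-Bl* (0.857), a class I MHC gene with close paralogs, and *Cnnm4* (0.823). *Irf8* had too few counts for this. Within the set the highest r was 0.627, between *Irf2bpl* and *Irf1*, followed by 0.566 between *Irf2bp1* and *Irf3*, and *Irf2bp2* with *Irf2* had -0.07. These values describe the likeness of patterns over libraries that share their treatment, and were not tested.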

How the data were processed

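RNA of 21 MEL libraries was analysed table by table. The authors mapped the reads with TopHat2 to mm9 and deposited raw read counts and RPKM values per RefSeq gene, with their DESeq2 fold changes and p-values, which were not used. The authors' site list gives class codes, an adjusted p-value and the fold (ratio of ChIP to IgG) of each site, from Bowtie alignments and several peak callers. The sizes of the classes told which code stands for which class. LSD1 and GFI1B ChIP were not analysed here.

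Counts were scaled by TMM, filtered with filterByExpr and tested with edgeR 4.0.16 (quasi-likelihood, R 4.3.3), with Benjamini-Hochberg adjustment over all genes of a table and a threshold of 0.05. Run on simulated data, the test found most of the changes put in at the spread of the shRNA tables and few at that of the *Gfi1b* and MEL tables. Those changes were larger than any measured for a member with all libraries. The run therefore does not show how often changes as small as those of the members are found. Depth set a floor of 3 counts, or between 0.052 and 0.302 CPM, for counting error only. Of the same-numbered *Eto2* libraries, the deviations from group means correlated by 0.251, 0.114 and 0.244. The labels do not say whether the numbers pair libraries, and the main fits used no pairing. Alternatives were DESeq2 1.42.0, its size factors in edgeR, other filters, a log2 limit of 0.5, a replicate block, single hairpins, leaving out each library, and other site distances. Site windows were read from the mm9 genome with GENCODE gene models in Python 3.11.15 with pysam 0.24.0. *Irf2bpl* was matched there through its synonym.

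The named genes were all members, the depleted genes, and at most the 3 called genes with the largest change in each list and comparison, plus the 3 genes most like *Irf2bp2* and *Irf1*. *Tap1* and *Xaf1* were named beyond this rule, after their values were seen. Some genes that the rule names are not reported here. The members and the lists were chosen with earlier results of these data known.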

Additional observations from a re-analysis of the deposited data

Results flagged for a closer look

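The hairpins against *Cbfa2t3* differed for 2 members in a direct test of sh3 against sh2. *Irf2bpl* was lower with sh3 by a log2 FC of -0.47 (edgeR adjusted p = 0.0113), and both sh3 libraries lay below both sh2 libraries. Without sh2 replicate 2 the edgeR adjusted p was 0.0598 (log2 FC -0.32) and without sh3 replicate 2 it was 0.059 (-0.47). *Irf5* was lower with sh3 by a log2 FC of -0.24 (edgeR adjusted p = 0.0497), at 22.8 and 22.6 CPM against 26.1 and 27.3 CPM with sh2, and this call was lost with no filter on low counts (0.0596) and when any 1 of the 6 libraries was left out (0.0536 to 0.215). The hairpins also differed in the RNA left of *Cbfa2t3* (log2 FC -0.73 for sh3 against sh2), and the part of that difference in these changes was not tested.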

How the results depend on the processing

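Of 350 tested values of the members under an alternative to a comparison of treated with control cells, 330 kept their direction where called and their side of the threshold, as did 11 of 20 for sh3 against sh2. Most of the 350 belong to changes that did not pass in the main test, and under the log2 limit such a value could not change side. A further 14, with 1 *Lsd1* KD library left out, had no test. No called value reversed, and 24 values that passed in neither setting changed sign. With a log2 limit of 0.5 the called genes numbered 720 in *Eto2* KD (of 1423), 2778 in *Irf2bp2* KD (of 5810) and 2838 in *Lsd1* KD (of 6121), and the changes of *Irf2bp2* (-0.33 in its own KD, 0.38 in *Lsd1* KD) lay under that limit. In *Eto2* KD, sh2 alone gave 2342 genes, sh3 alone 3699 and a fit of 3 groups 3149. Leaving out each library gave between 298 and 1612 genes in *Eto2* KD (298 without control replicate 1, 404 without replicate 2), between 711 and 1745 for sh3 against sh2 (988 without sh3 replicate 1, 711 without sh3 replicate 2), between 0 and 3530 in *Gfi1b* KD (403 without the library labelled KD replicate 1, 3530 without KD replicate 2) and between 1522 and 3369 in the MEL comparison (1626 and 1522 without non-induced replicates 1 and 2, 1772 without induced replicate 2). In *Gfi1b* KD, DESeq2 called 59 genes and no filter on low counts 411.

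The replicate block gave 3121 genes for sh3 against sh2 (of 1720) and moved *Irf2bpl* past the threshold in *Irf2bp2* KD and with induction. It changed no other call of a member. Same-numbered libraries correlated by 0.0248 in *Irf2bp2* KD, -0.00464 in *Gfi1b* KD and 0.196 in the MEL table. The last value lies among those of the *Eto2* table (0.114 to 0.251), and no rule was set for calling libraries paired. *Lsd1* KD shares 1 number between its groups, so no block was fitted, and with 1 control and 1 KD library no test was run. The alternatives to the sh3 and sh2 contrast were chosen after seeing the data. The order of 7 genes by RPKM kept 5 positions without *Gfi1b* control replicate 1, 5 without *Irf2bp2* control replicate 1, and 5 or 4 without non-induced replicate 1 or 2, and between 4 and 7 over all libraries left out. ETO2-occupied sites lay near 1 of 8 members within 5 kb, 4 within 100 kb and 1 among sites at or above the median fold. The shares of all protein-coding genes were 3.82%, 38% and 8.42%. For IRF2BP2-occupied sites the members numbered 4, 7 and 4, against 17%, 57.8% and 16.9% of all genes. At these depths *Irf8* was not measurable.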
